A study of Mus musculus with 2 samples.

Results

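The cells described here are T cells without Cd8 UMIs that carried RNA of Foxp3, Il2ra or Ikzf2, taken from scRNA-seq of prostate tumors grown in mice. They were chosen by their unique molecular identifier (UMI) counts as candidate regulatory T cells, where 1 UMI stands for 1 captured RNA molecule. A barcode was taken when it had at least 1000 UMIs, at most 20% mitochondrial UMIs, at least 2 UMIs of Cd3d, Cd3e and Cd3g together, 0 of Cd8a and Cd8b1, at most 2 of Krt8 and Krt18, at most 2 of C1qa, C1qb and C1qc, and either 1 UMI of Foxp3 or 2 UMIs of Il2ra and Ikzf2 together. The rule found 615 gated cells among 22524 barcodes with enough UMIs, 251 of 12253 in the control library and 364 of 10271 in the ENZ library.

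Both libraries came from wild-type C57BL/6 mice with tumors of the mouse prostate cancer line RM-1, which was placed in the prostate and used in the study as a model that is resistant to enzalutamide (ENZ), an antiandrogen drug. The control mouse received vehicle and the other mouse received ENZ. Each condition was 1 mouse and 1 library, so no test between conditions was possible, and the mouse, the library and the treatment cannot be told apart. Immune cells were enriched during sorting, which sets the share of any cell type among all barcodes.

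Regulatory T cells are T cells, mostly CD4-positive, that hold back other immune cells. The transcription factor Foxp3 defines the lineage, and the cells also carry the IL-2 receptor alpha chain (Il2ra), the transcription factor Helios (Ikzf2) and surface receptors such as Ctla4, Icos, Tnfrsf4 (OX40) and Tnfrsf18 (GITR). None of these except Foxp3 is close to specific: Il2ra is also found on activated and innate-like T cells, and Ikzf2 on some CD8, gamma delta and NK-like cells. In tumors and barrier tissues, effector regulatory T cells are known for Il10, Areg, Il1rl1 (the IL-33 receptor), Klrg1 and Batf.

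Most gated cells had no UMI of the gene that defines the lineage. A Foxp3 UMI was present in 41 of the 251 control cells and in 82 of the 364 ENZ cells, 16.3% (95% interval 12.0 to 21.5) and 22.5% (18.3 to 27.2). Here and below, intervals of shares are exact Clopper-Pearson, those of levels are exact Poisson, those of ratios are exact conditional binomial and those of differences between shares are Newcombe intervals built from the exact ones, all at 95% and for counting error only. Of the cells without Foxp3, 92 control and 170 ENZ cells had an Il2ra UMI, and 118 control and 112 ENZ cells were taken on Ikzf2 alone, 47.0% (40.7 to 53.4) and 30.8% (26.1 to 35.8) of the gated cells. The gated cells are therefore called by their rule, and those with a Foxp3 UMI are described apart from the rest.

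**Figure D1:**
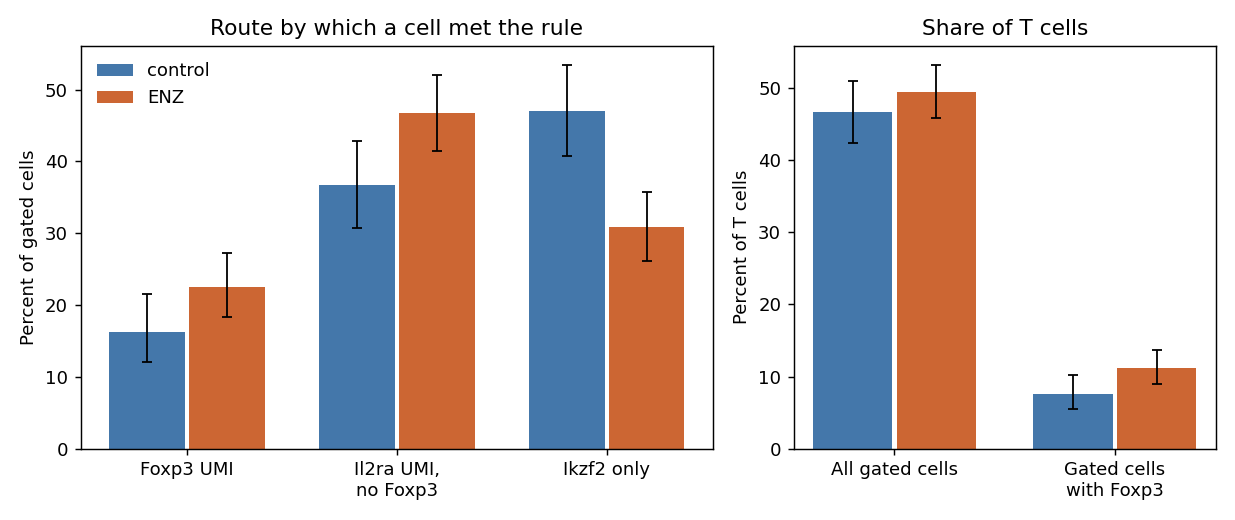
The left panel shows the percent of gated cells that entered by a Foxp3 UMI, by Il2ra without Foxp3, or by Ikzf2 alone, and the right panel the percent of T cells that were gated or gated with Foxp3; bars are 1 control and 1 ENZ library and lines are exact 95% intervals. In the control library the Ikzf2 bar is the tallest at 47.0%, and in the ENZ library the Il2ra bar is at 46.7%.

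The genes of the rule lie on chromosomes X, 2 and 1 in the GENCODE M21 annotation of GRCm38. Foxp3 (ENSMUSG00000039521) spans chrX:7573644-7595245 on the plus strand, Il2ra (ENSMUSG00000026770) spans chr2:11642807-11693193 on the plus strand, and Ikzf2 (ENSMUSG00000025997) spans chr1:69531214-69687245 on the minus strand. Icos and Ctla4, neighbouring receptor genes that the rule did not use, lie on the plus strand of chromosome 1 at 60977927 to 61000320 and 60887000 to 60915832. The cells were selected on the UMIs of these 3 genes, of CD3, Cd8, keratins and C1q, so their values are given as a description only. Among gated cells with Foxp3, the median cell had 1 Foxp3 UMI in either library, the highest had 4 in control and 6 in ENZ cells, and 30 of 41 and 49 of 82 had exactly 1. Ikzf2 had a median of 6 UMIs per gated cell in control and 7 in ENZ cells, with highest values of 50 and 62, and Il2ra had medians of 0 and 1 with highest values of 12 and 20. With Foxp3 at 1 UMI in most cells that had it, a gated cell without a Foxp3 UMI is not shown to lack Foxp3 RNA.

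Depth did not separate the libraries or the groups of gated cells by much. The median gated cell had 4472 UMIs in the control library, with a range of 1256 to 33687, and 4475 UMIs in the ENZ library, with a range of 1202 to 29199. Cells with Foxp3 had medians of 4610 and 4287 UMIs, and cells without it 4438 and 4498. The median mitochondrial share was 2.47% and 1.83%. Summed over the gated cells, 1438207 control and 2060092 ENZ UMIs stood behind each level, given as a share of all UMIs scaled to 1000000 (CPM). No barcode of a gated cell was shared between the libraries, against 39 among all barcodes with enough UMIs.

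Outside the gate, Foxp3 UMIs were rare. Foxp3 was seen in 41 of 538 control T cells, all of them gated as the rule sets, and in 85 of 735 ENZ T cells, of which 3 had a Cd8 UMI and so fell outside the gate. Among CD8 T cells it was at 0 of 60 and 0 of 102, and for a count of 0 the limit was set at 3 cells in place of the exact bound, which allows up to 5.0% and 2.94% of cells with a Foxp3 UMI. A limit on cells with a UMI is not one on cells that express the gene. Cells with abundant keratin RNA and no CD3, which should lack the gene and had medians of 30436 and 28529 UMIs, carried a Foxp3 UMI in 0.384% and 0.873%. When every cell was thinned to 1000 UMIs, the share was 2.04% of control and 4.22% of ENZ T cells, and 0% of the keratin cells in either library. The other route into the gate was less particular. At least 2 UMIs of Il2ra and Ikzf2 were found in 48.3% of control and 49.0% of ENZ CD8 T cells, in 11.7% and 9.68% of the much deeper keratin cells, and in 2.68% and 3.6% of cells with C1q RNA.

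Just inside the threshold Ctla4, Tnfrsf9, Tnfrsf18 and Gzma were at higher levels than just outside it in both libraries, and Icos and Cd4 at lower levels. These levels are given without intervals. Gated cells with no Foxp3 and exactly 2 UMIs of Il2ra and Ikzf2, just inside, had Ctla4 at 123 CPM in the control (40 cells) and 124 CPM in the ENZ library (35 cells). Cells with 1 such UMI, just outside, had 60.5 CPM (56 cells) and 96.4 CPM (67 cells), and those with 0 such UMIs had 47.3 CPM (130 cells) and 151 CPM (135 cells). Gated cells without Foxp3 that had 3 or more such UMIs had 143 CPM (170 cells) and 250 CPM (247 cells), so the levels followed the number of UMIs of the pair in the control library, while in the ENZ library cells with 0 such UMIs were above those with 1 or 2. Icos was at 322 and 303 CPM just outside and at 225 and 210 CPM just inside. It was at 211 and 257 CPM with 0 such UMIs, and at 144 and 233 CPM with 3 or more and no Foxp3. Tnfrsf9 was at 90.8 and 160 CPM just outside and at 378 and 324 CPM just inside. With 0 such UMIs it was above the cells just outside, at 235 and 203 CPM, and with 3 or more and no Foxp3 at 358 and 504 CPM. Cells that had Foxp3 and also 2 or more UMIs of the pair, 39 and 77 in number, had Ctla4 at 553 and 617 CPM. Tnfrsf18 was at 90.8 and 96.4 CPM just outside and at 149 and 162 CPM just inside. Gzma, a granzyme gene of killer cells, was at 341 and 59.8 CPM just outside and at 1250 and 680 CPM just inside. With 0 such UMIs Gzma was at 650 and 419 CPM. Cd4 was at 22.7 and 143 CPM just outside and at 17.0 and 80.9 CPM just inside. Zbtb16 was at 462 and 199 CPM just outside and at 230 and 345 CPM just inside, so its order differed between the libraries.

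Within the gate, cells with a Foxp3 UMI had higher levels of regulatory T cell genes than cells without one, in both libraries. Of 14 genes of the identity list, 3 were used by the rule, and 7 of the other 11 passed the filter on low values, which asks for 50 CPM in either group and 20 UMIs summed over both groups. These 7 were Icos, Ctla4, Tnfrsf18, Tnfrsf4, Ikzf4, Izumo1r and Capg, and each was higher with Foxp3 in both libraries with intervals above 1. Their median log2 ratio was 1.56 in control and 0.93 in ENZ cells, against 0.02 and -0.00 over the 3198 genes that passed in both. Of those 3198 genes, 33.2% were higher with Foxp3 in both libraries and 31.8% lower in both, 7.04% had intervals above 1 in both and 6.07% below 1 in both. At least 2-fold higher in both were 33 of them, or 1.03%, and at least 2-fold lower 81, or 2.53%. A gene can pass this filter by its level in the cells with Foxp3 alone, as Il10 did, which favours a higher value there, so the counts of each list describe the genes that passed and are not support. With the 50 CPM asked of both groups pooled, a filter added after seeing the data, 5 identity genes passed and 5 were higher in both libraries, as were 8 of 9 tissue effector genes, 6 of 6 costimulatory and 3 of 4 coinhibitory receptors, against 30.8% of 2880 genes.

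Ctla4, the inhibitory receptor that takes up the costimulatory ligands of antigen-presenting cells, was at 531 CPM with Foxp3 and 139 CPM without in the control library, a ratio of 3.82 (3.01 to 4.84), and at 624 and 236 CPM in ENZ cells, a ratio of 2.64 (2.26 to 3.09). A Ctla4 UMI was seen in 80.5% and 69.5% of the cells with Foxp3 and in 29.5% and 52.1% of those without. When thinned to 1000 UMIs, these shares were 48.8% and 35.4% with Foxp3 and 10.0% and 19.5% without, against 0.864% and 0.873% of keratin cells. Tnfrsf4, a costimulatory receptor of the TNF receptor family, was at 350 against 97.0 CPM in control and 341 against 133 CPM in ENZ cells. Icos, the inducible costimulator, was at 301 against 160 CPM, a ratio of 1.88 (1.42 to 2.48), and at 438 against 230 CPM, a ratio of 1.9 (1.59 to 2.26).

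**Figure D2:**
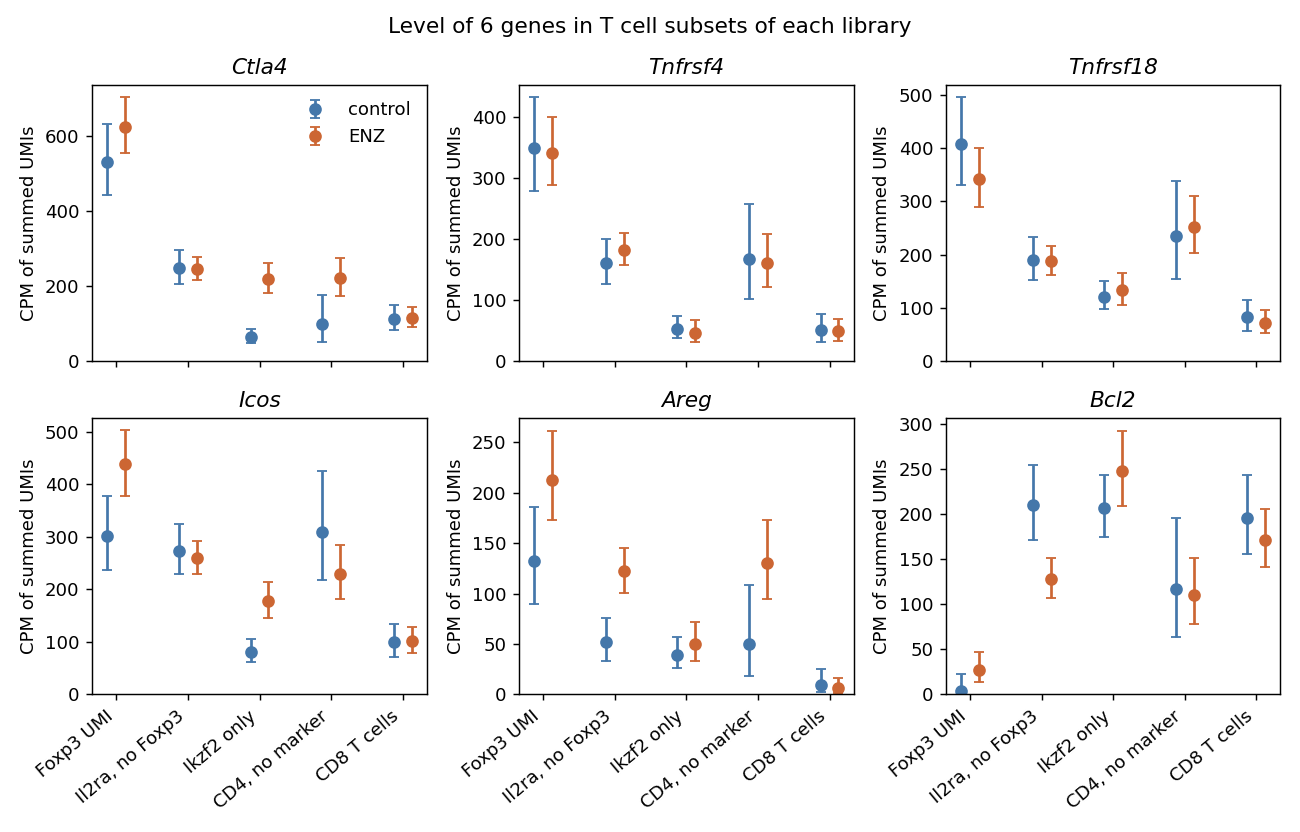
Each panel shows the level of 1 gene in CPM of summed UMIs (vertical axis, linear, from 0) in gated cells by route, in CD4 T cells without Foxp3, Il2ra or Ikzf2 at the rule's limits, and in CD8 T cells; points are 1 control and 1 ENZ library and lines are exact Poisson 95% intervals. Ctla4 is highest in cells with a Foxp3 UMI, at 531 and 624 CPM, while Bcl2 is lowest there, at 4.12 and 26.9 CPM.

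Receptors that steer T cell activation were in part counted above, since Icos, Tnfrsf4, Tnfrsf18 and Ctla4 are also identity genes. Of 8 costimulatory receptors, 6 passed the filter and all 6 were higher with Foxp3 in both libraries, 5 with intervals above 1, with median log2 ratios of 1.22 and 0.83. Tnfrsf9 (4-1BB) was at 873 against 362 CPM in control and 801 against 483 CPM in ENZ cells, and its UMIs were seen in 92.7% and 84.1% of the cells with Foxp3. Of 8 coinhibitory receptors 5 passed, and 4 were higher in both libraries, 3 with intervals above 1, with median log2 ratios of 1.46 and 0.49. Tigit was at 86.4 against 27.6 CPM and 108 against 52.6 CPM, and Pdcd1 (PD-1) at 140 against 56.9 CPM and 117 against 83.0 CPM.

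Genes of tissue effector cells were also higher with Foxp3. Of 15 genes, 13 passed, and 12 were higher in both libraries, 9 with intervals above 1, with median log2 ratios of 1.39 and 0.64. Il10, the suppressive cytokine, was at 70.0 against 13.4 CPM in the control, a ratio of 5.23 (2.48 to 11.1), and at 58.4 against 23.5 CPM in ENZ cells, a ratio of 2.48 (1.45 to 4.19). Its UMIs were in 19.5% and 20.7% of cells with Foxp3 and in 3.81% and 8.51% of those without. Areg, an epidermal growth factor receptor ligand linked to tissue repair, was at 132 against 44.3 CPM and 213 against 96.0 CPM. The transcription factors Maf, at 498 against 197 CPM and 584 against 307 CPM, and Rora, at 1095 against 503 CPM and 1441 against 998 CPM, showed the same order. Pparg was at 74.1 against 8.37 CPM and 114 against 34.7 CPM, with its 18 control UMIs spread over 8 of the 41 cells with Foxp3.

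Suppressive effector genes did not move as a block. Of 14 genes 11 passed, 6 were higher with Foxp3 in both libraries and 2 lower in both, with 4 and 1 having intervals on that side, and the median log2 ratios were 0.37 and 0.32. Itgb8, an integrin subunit that helps to activate TGF-beta, was at 218 against 66.1 CPM in control and 218 against 129 CPM in ENZ cells. Gzmb, a granzyme used by killer cells and by some regulatory T cells, was at 461 against 501 CPM and 478 against 403 CPM. Prf1, the pore-forming partner of the granzymes, had 0 UMIs in the cells with Foxp3, which allows up to 12.3 and 6.73 CPM, and was at 148 and 181 CPM without Foxp3.

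Genes of resting and central cells mostly ran the other way. Of 10 genes 8 passed, and 5 were lower with Foxp3 in both libraries, 4 with intervals below 1, while 3 were higher, 1 with an interval above 1, and the median log2 ratios were -1.52 and -0.63. Tcf7, a transcription factor of naive and stem-like T cells, was at 0 UMIs against 110 CPM in control and 2.24 against 61.9 CPM in ENZ cells. Bach2 was at 16.5 against 218 CPM and 31.4 against 175 CPM. Bcl2, an inhibitor of mitochondrial cell death, was at 4.12 against 208 CPM, a ratio of 0.0198 (0.000498 to 0.111), and at 26.9 against 171 CPM, a ratio of 0.158 (0.0804 to 0.28). Its UMIs, thinned to 1000 per cell, were in 0% and 3.66% of cells with Foxp3 and in 17.6% and 12.1% of those without, and in 21.0% and 20.3% of T cells without Cd8 outside the gate. Among the genes higher with Foxp3 was the homing receptor Ccr7, at 74.1 against 29.3 CPM and 103 against 44.6 CPM. Ccr7 was also the chemokine receptor with intervals above 1 in both libraries, among 3 of 14 homing genes that passed, of which 2 were higher in both, with median log2 ratios of 0.05 and 0.79. In the control library Ccr7 passed by its level in the cells with Foxp3 alone, and over all control gated cells it was at 36.9 CPM. With 50 CPM asked of both groups pooled, 2 homing genes passed, 1 was higher in both libraries and 0 had intervals above 1. Of the resting and central genes 6 then passed, 2 were higher and 4 lower, 0 and 3 with intervals on that side.

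Of the 7 steroid receptor and target genes, 5 passed, 4 were lower with Foxp3 in both libraries, 3 with intervals below 1, and 1 was higher, with median log2 ratios of -0.45 and -0.21. The glucocorticoid receptor gene Nr3c1 was at 795 against 934 CPM and 862 against 998 CPM.

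The remaining lists were compared in the same way. In IL-2 signalling, 8 of 11 genes outside the rule passed, 1 was higher and 4 were lower in both libraries, and the interval was below 1 in both for Jak1, with median log2 ratios of -0.04 and -0.08. In TGF-beta signalling 9 of 9 passed, 2 were higher and 5 lower, 1 with an interval below 1, with medians of -0.25 and -0.13. Of the T cell receptor response genes 7 of 12 passed, 2 were higher and 4 lower, with medians of -0.31 and -0.36, and Cd5, a receptor that tunes T cell receptor signals, had intervals above 1 at 177 against 28.4 CPM and 173 against 88.0 CPM. Of 14 cell cycle genes 7 passed, 1 was higher and 3 lower, none with an interval clear of 1 in both, with medians of -0.12 and 0.00. Of 14 immediate early and heat shock genes 12 passed, 2 were higher and 5 lower, 1 and 3 with intervals on that side, with medians of -0.13 and -0.01. The chaperone gene Hspa1a was at 3059 against 3656 CPM and 2103 against 2927 CPM.

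Of 15 interferon-stimulated genes 6 passed, and 4 of the 6 were higher in both libraries, 2 of these with intervals above 1, with medians of 0.39 and 0.59. Ly6a was at 432 against 172 CPM and 545 against 283 CPM. Of 10 glycolysis genes 10 passed, 7 were higher and 2 lower, 3 and 0 with intervals on that side, with medians of 0.41 and 0.10, and Gapdh was at 2466 against 1733 CPM and 1798 against 1492 CPM. Of 8 BCL2 family and death receptor genes 6 passed, 1 was higher and 2 lower in both, and both lower genes, Bcl2 and the cell death inducer Bcl2l11, had intervals below 1, with medians of -0.24 and 0.05. Of 12 helper lineage genes 1 passed and was lower in both. Genes named for this comparison outside the fixed lists, chosen after their values were seen, include Bmyc at 247 against 29.3 CPM and 224 against 54.5 CPM, the FERM domain gene Frmd5 at 527 against 91.2 CPM and 738 against 342 CPM, and the adhesion receptor Cd2 at 313 against 119 CPM and 415 against 188 CPM.

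**Figure D3:**
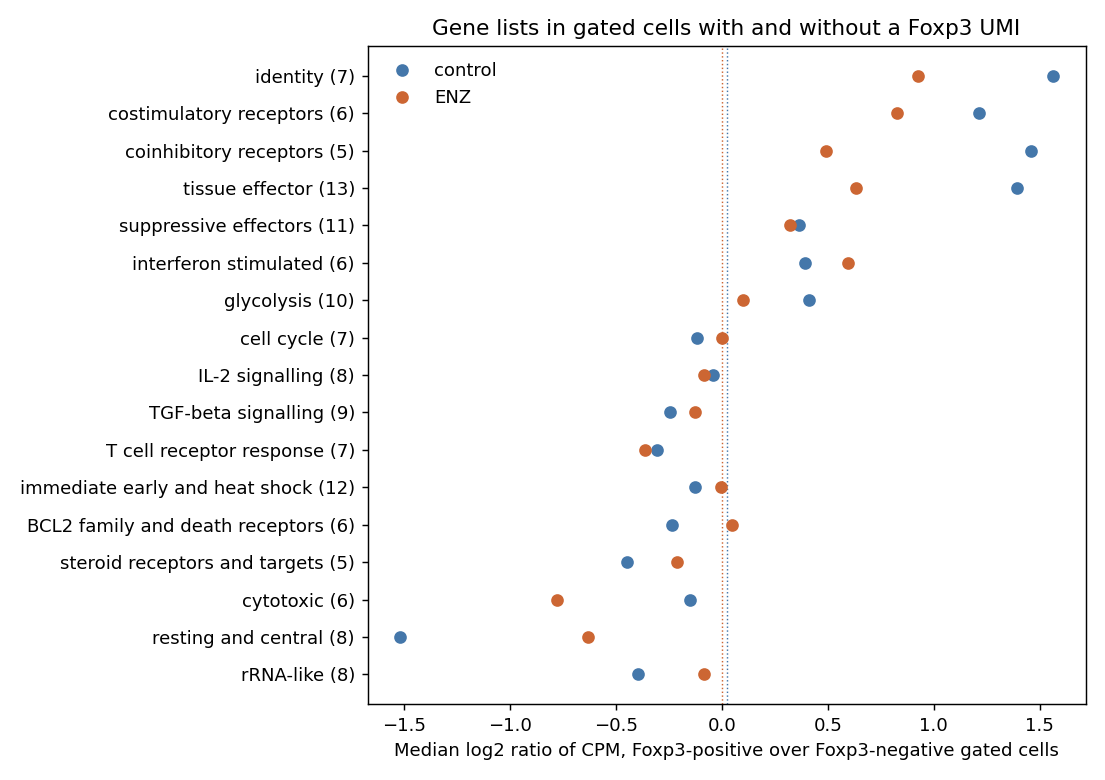
The horizontal axis is the median log2 ratio of CPM in gated cells with over gated cells without a Foxp3 UMI, for the genes of each list that passed the filter (number in brackets), with 1 point per library and dotted lines at the medians over all genes. Identity, receptor and tissue effector lists lie to the right in both libraries, and the resting, cytotoxic, steroid, T cell receptor response and TGF-beta lists to the left, with the cytotoxic list at -0.15 in the control library.

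Genes of cytotoxic and innate-like lymphocytes were found in the cells without Foxp3, and in T cells outside the gate. Cytotoxic genes were at higher levels in them: of 9 genes 6 passed, 4 were lower with Foxp3 in both libraries, 3 with intervals below 1, and 1 was higher, with median log2 ratios of -0.15 and -0.78. Gzma was at 632 CPM without Foxp3 and 0 UMIs with it in the control library, and at 400 and 6.73 CPM in the ENZ library. These Gzma levels rested on 28 of 210 and 23 of 282 cells, with 63.3% and 79.9% of the UMIs in 5 cells. Zbtb16 (PLZF), the transcription factor of innate-like T cells, was at 173 and 79.9 CPM without Foxp3 and at 0 UMIs with it in both libraries. The summed level of the NK cell markers was 819 and 495 CPM without Foxp3 and 8.23 and 8.98 CPM with it. Most of the sum without Foxp3 was the Gzma level given above. Gamma delta T cell markers summed to 76.1 and 27.3 CPM without and 0 UMIs with Foxp3. A UMI of any of 8 innate-like genes (Trdc, Tcrg-C1, Tcrg-C2, Tcrg-C4, Ncr1, Klrb1c, Gzma and Zbtb16, grouped after values were seen) was found in 0 of 41 and 3 of 82 cells with Foxp3. Among gated cells without Foxp3 it was found in 46.7% in control and 23.0% in ENZ cells, among T cells without Cd8 outside the gate in 55.4% and 37.1%, and among CD8 T cells in 36.7% and 38.2%. Markers of myeloid cells were also higher without Foxp3: neutrophil markers summed to 690 and 303 CPM against 57.6 and 35.9 CPM, and macrophage markers to 459 and 186 CPM against 239 and 69.6 CPM. Dendritic cell markers, led by Cd74, summed to 2015 and 574 CPM without and 1881 and 954 CPM with Foxp3, and the part of this RNA in the comparison was not tested.

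The routes without Foxp3 differed in some innate-like genes. Zbtb16 UMIs were in 30 of 92 control and 20 of 170 ENZ cells of the Il2ra route, against 13 of 118 and 7 of 112 cells taken on Ikzf2 alone, with overlapping intervals in the ENZ library. Klrb1c, which encodes the NK receptor NK1.1, was in 5.43% and 1.18% of cells of the Il2ra route and in 27.1% and 9.82% of the Ikzf2 cells. Gzma was in 4.35% and 3.53% against 20.3% and 15.2%, and its level was 30.9 and 44.5 CPM in the Il2ra route against 1043 and 1034 CPM in the Ikzf2 cells. Trdc, of the gamma delta T cell receptor, was in 9.78% and 2.94% against 9.32% and 2.68%, and the NK receptor gene Ncr1 in 1.09% and 4.71% against 6.78% and 4.46%. The receptor for IL-1, Il1r1, named after its values were seen, had 214 and 104 CPM in the Il2ra route against 4.23 and 19.0 CPM in the Ikzf2 cells.

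**Figure D4:**
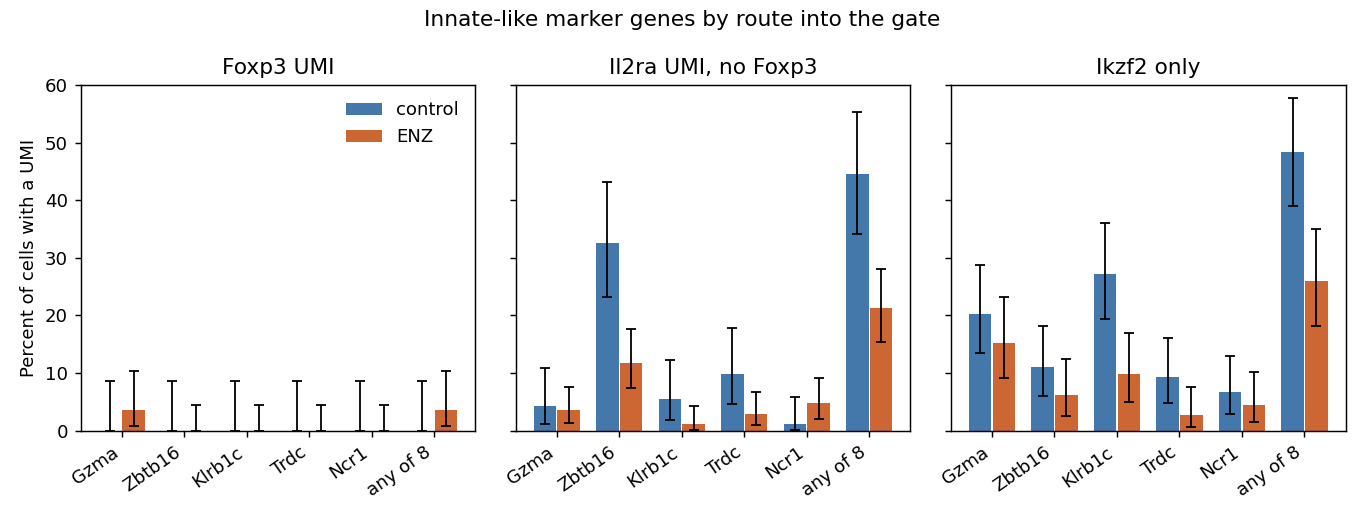
The vertical axis is the percent of cells with at least 1 UMI of each gene, or of any of 8 innate-like genes, in gated cells by route; bars are 1 control and 1 ENZ library and lines are exact 95% intervals. Cells with a Foxp3 UMI are at 0% and 3.66% for any of the 8 genes, and the other routes lie between 21.2% and 48.3%.

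The routes also differed in regulatory T cell genes that the rule did not use. Of the identity genes 5 passed in this comparison and all 5 were lower in the Ikzf2 cells in both libraries, 4 with intervals below 1. Over the 3191 genes that passed, 31.9% were lower in the Ikzf2 cells in both libraries and 26.6% higher, with intervals below 1 for 5.55% and above 1 for 5.23%. Of the tissue effector genes 9 passed and 8 were lower, 3 with intervals below 1. Genes could pass by their level in the Il2ra route alone. With 50 CPM asked of both routes pooled, 5 of 5 identity and 7 of 8 tissue effector genes were lower in both libraries, against 31.7% of 2878 genes. Tnfrsf4 was at 53.6 and 46.5 CPM in the Ikzf2 cells and at 161 and 182 CPM in the Il2ra route. Cell cycle genes were higher in the Ikzf2 cells for 7 of the 8 that passed, 4 with intervals above 1, and cytotoxic genes for 4 of the 5, 3 with intervals above 1. Cd4 UMIs were in 19.6% and 41.2% of cells of the Il2ra route, in 10.2% and 21.4% of Ikzf2 cells, and in 53.7% and 52.4% of cells with Foxp3. RNA of neutrophils moved with the Ikzf2 cells: the summed level of the neutrophil markers was 1082 and 701 CPM there against 117 and 80.3 CPM in the Il2ra route, with S100a9 the most abundant. Over all gated cells, 48.9% of the control and 59.3% of the ENZ UMIs of S100a9 were in 1 cell each, and the part of this RNA in the other differences was not tested.

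The gated cells were also set against other CD4 T cells. The comparison cells were 25 control and 73 ENZ T cells with a Cd4 UMI, no Cd8 UMI, no Foxp3 UMI and fewer than 2 UMIs of Il2ra and Ikzf2. Over the identity, costimulatory, coinhibitory, suppressive and tissue effector lists, 28 of 47 genes outside the rule passed, and 13 were higher in gated cells in both libraries. Over all 3215 genes that passed, 941, or 29.3%, were higher in both. Cells with Foxp3 alone had 6 of 7 identity genes higher than in CD4 cells in both libraries, all 6 with intervals above 1, and a median log2 ratio of 1.55 and 1.08, where 32.0% of 2753 genes were higher in both and 5.27% had intervals above 1. For the tissue effector genes 12 passed, 10 were higher and 6 had intervals above 1. These counts too describe genes that could pass by 1 group alone, and with 50 CPM asked of both groups pooled they were 6 of 7 and 10 of 12, against 32.4% of 2725 genes.

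Single genes varied in this comparison. Ctla4 was at 205 CPM in gated cells and 100 CPM in CD4 cells of the control library, a ratio of 2.05, and at 320 and 220 CPM in ENZ cells, a ratio of 1.45. Icos was at 184 against 309 CPM and 275 against 229 CPM, so its order differed between the libraries. Klrg1, a receptor of effector cells, was at 109 against 8.35 CPM and 124 against 11.3 CPM. Ranked by the interval bound nearer to 1 in the lesser library, the 10 highest genes were Gzmd, Gzma, Gzmc, Gzme, Dscam, Gzmg, Prf1, Frmd5, Setbp1 and Gzmb. Of these, Gzmc had 2 of its 2911 control and 4 of its 2187 ENZ UMIs in cells with Foxp3, and Prf1 had 0. In 5 cells each were 63.3% and 79.5% of the Gzma UMIs, 98.9% and 98.7% of those of Gzmd, and 72.9% and 89.8% of those of Prf1. Gzmb was at 494 against 91.8 CPM and 419 against 42.4 CPM, and Dscam, a cell adhesion gene best known from neurons, at 345 against 16.7 CPM and 185 against 2.82 CPM. By the same ranking the 10 lowest were Ccl1, Cd4, Tnfsf11, Slamf6, Themis, Ms4a6b, Lyz2, Inpp4b, Ddb2 and P2rx7, of which Cd4 chose the comparison cells. Themis, needed for T cell development, was at 107 against 284 CPM and 228 against 664 CPM, and the chemokine gene Ccl1 at 22.2 against 159 CPM and 31.6 against 195 CPM.

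Gated cells with a Foxp3 UMI were also set against CD8 T cells of the same library, a comparison made after values had been seen. The 7 identity genes that passed were each higher with Foxp3 in both libraries, with median log2 ratios of 2.31 and 2.43, and so were the 12 tissue effector genes that passed, with medians of 2.69 and 2.09, where 31.8% of 3310 genes were higher in both and 35.1% lower in both. Genes can pass by their level in the cells with Foxp3 alone here too. With 50 CPM asked of both groups pooled, 5 of 5 identity and 9 of 9 tissue effector genes were higher in both, against 31.1% of 2928 genes. Rora was at 1095 and 1441 CPM with Foxp3 and at 250 and 404 CPM in CD8 T cells. Il1rl1 was at 78.2 and 206 CPM with Foxp3 and at 2.43 and 1.54 CPM in CD8 T cells. Cell cycle genes were lower with Foxp3 for 9 of the 11 that passed, with medians of -0.64 and -1.01, and cytotoxic genes for 4 of 6, with medians of -0.48 and -2.68. The T cell receptor constant gene Trac was at 255 and 254 CPM with Foxp3, at 204 and 216 CPM in CD8 T cells, and at 78.9 and 140 CPM in gated cells taken on Ikzf2 alone.

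The share of T cells in the gate and its makeup were compared between the libraries. Gated cells were 46.7% (42.4 to 51.0) of 538 control T cells and 49.5% (45.8 to 53.2) of 735 ENZ T cells, a difference of 2.87 percentage points (-2.8 to 8.51). The difference depended on the definition. It was 6.87 points (0.646 to 13.1) of T cells without Cd8 and 8.97 points (5.04 to 12.8) with a Cd4 UMI asked as well. With the rule applied to cells thinned to 1000 UMIs it was 9.67 points (0.957 to 18.1). The CD3 and Cd8 limits were then also applied to the thinned counts, which left 204 control and 244 ENZ T cells. Leaving cells with innate-like UMIs out of the gated cells, but not out of all T cells, gave 11.8 points (6.46 to 17.1). That denominator kept the innate-like cells outside the gate, which were more frequent in the control library. A share with them left out of both is not given. Gated cells with Foxp3 were 7.62% (5.52 to 10.2) and 11.2% (8.97 to 13.7) of T cells, a difference of 3.54 points (0.158 to 6.8). Among gated cells, those taken on Ikzf2 alone differed by -16.2 points (-24.2 to -8.18), ENZ minus control, and those of the Il2ra route were higher by 10.0 points (1.88 to 18.0). Within the Il2ra route, the share with any innate-like UMI was 44.6% in control and 21.2% in ENZ cells, a difference of -23.4 points (-35.6 to -10.9), and within the Ikzf2 cells it was 48.3% and 25.9%, a difference of -22.4 points (-34.6 to -9.38). Cd4 UMIs were in 14.3% of control and 33.3% of ENZ gated cells without Foxp3, a difference of 19.0 points (11.3 to 26.4), at median depths that differed little. T cells without Cd8 outside the gate had differences of the same direction, with Cd4 UMIs in 13.4% and 36.1%, a difference of 22.7 points (13.9 to 31.1), and any innate-like UMI in 55.4% and 37.1%, a difference of -18.2 points (-28.1 to -7.98). Of all barcodes with enough UMIs, gated cells were 2.05% and 3.54%, and T cells 4.39% and 7.16%.

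Across all gated cells, most receptor and tissue effector genes that passed had higher levels in the ENZ library, and most cell cycle genes and genes of the cytotoxic list lower levels. Of 3484 genes that passed, 52, or 1.49%, were at least 2-fold higher in the ENZ library and 43, or 1.23%, at least 2-fold lower, with a median log2 ratio of 0.08. Any higher level was found for 57.4% and any lower level for 42.6%, with intervals above 1 for 25.7% and below 1 for 19.4%. Of the identity genes 7 passed and 6 were higher, 5 with intervals above 1, while Capg was lower, with a median log2 ratio of 0.58. In gated cells with Foxp3, which share control and ENZ libraries with the whole gate, 9 identity genes passed, 4 were higher and 5 lower, 1 and 1 with intervals clear of 1, and the median was -0.04. Of the 3654 genes that passed there, 55.3% were higher and 44.7% lower, with intervals above 1 for 11.6% and below 1 for 12.6%. In T cells without Cd8 outside the gate, 6 passed, 5 were higher and the median was 0.65, where 58.2% of all genes were higher. Genes could pass by their level in 1 library alone, so these counts and those of the lists below are descriptions of the genes that passed. With 50 CPM asked of both libraries pooled, of which ENZ gave more of the UMIs, 6 of 7 identity genes, 6 of 6 costimulatory and 5 of 5 coinhibitory receptors and 9 of 10 tissue effector genes were higher over all gated cells, against 57.9% of 3221 genes, and 7 of 9 cell cycle and 4 of 5 cytotoxic genes were lower, against 42.1%. In cells with Foxp3 4 of 7 identity genes were then higher, and their median was 0.23 in place of -0.04. Outside the gate 4 of 5 were, with a median of 0.35.

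Several receptor genes illustrate this. Ctla4 was at 205 CPM in control and 320 CPM in ENZ cells over all gated cells, a ratio of 1.56, and at 531 and 624 CPM in cells with Foxp3, a ratio of 1.17 (0.95 to 1.46). In the Ikzf2 cells it was at 64.8 and 219 CPM, and in the Il2ra route at 247 and 246 CPM. Icos was at 184 and 275 CPM over all gated cells, a ratio of 1.5 (1.29 to 1.74), and at 301 and 438 CPM in cells with Foxp3, a ratio of 1.46 (1.11 to 1.93). All 6 costimulatory receptors that passed were higher over all gated cells, 5 with intervals above 1 and a median of 0.43, against 3 of 7 in cells with Foxp3 with a median of -0.00. All 5 coinhibitory receptors that passed were higher, 3 with intervals above 1 and a median of 0.53, against 2 of 6 with a median of -0.26. T cells without Cd8 outside the gate had the same direction, with 50 CPM asked of both libraries pooled. There 5 of 6 costimulatory and 3 of 4 coinhibitory receptors were higher, with medians of 0.39 and 1.19. So were 6 of 7 tissue effector genes, with a median of 0.53, against 57.7% of 3104 genes.

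**Figure D5:**
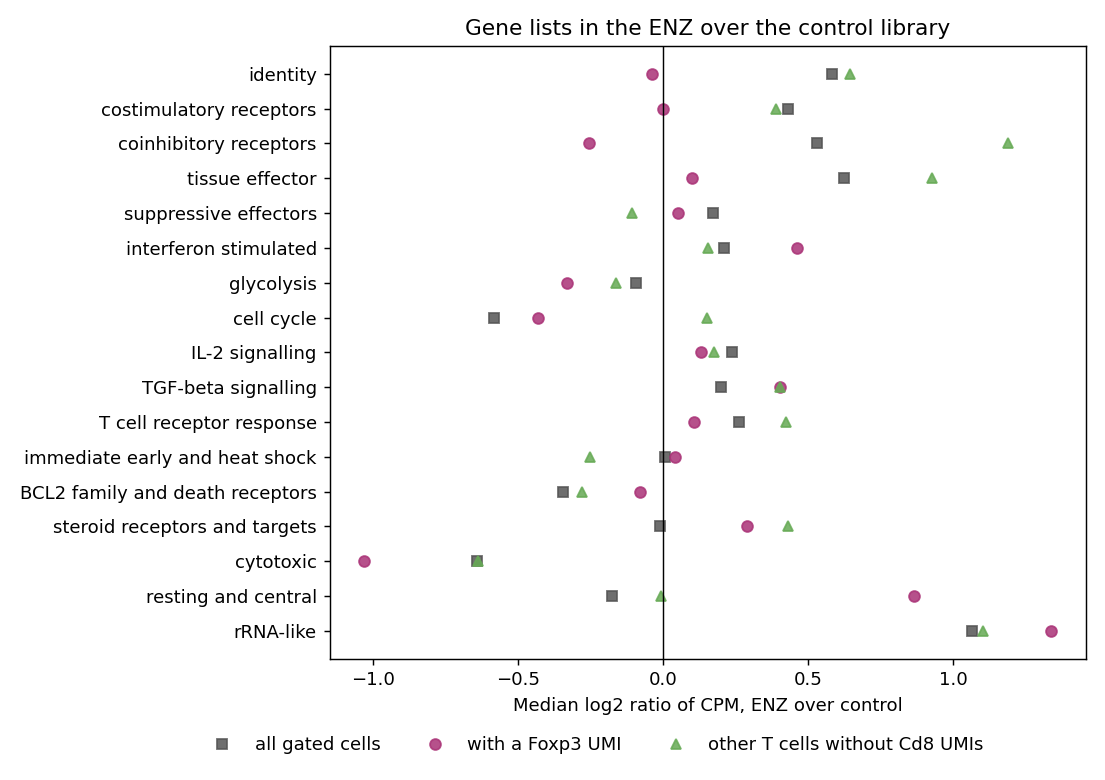
The horizontal axis is the median log2 ratio of CPM, ENZ over control library, for the genes of each list that passed the filter, in all gated cells (squares), gated cells with a Foxp3 UMI (circles) and T cells without Cd8 outside the gate (triangles). For the identity list the square and triangle lie at 0.58 and 0.65 and the circle at -0.04, which with the pooled filter was 0.23.

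Among the tissue effector genes 12 passed over all gated cells and 11 were higher in the ENZ library, 9 with intervals above 1 and a median of 0.63 (7 of 10 with intervals above 1 and a median of 0.49 with the pooled filter, which Pparg and Prdm1 did not pass), while in cells with Foxp3 7 of 14 were higher and the median was 0.10. Il1rl1 was the tissue effector gene with the largest ratio, at 34.8 CPM in control and 133 CPM in ENZ cells, a ratio of 3.84 (2.83 to 5.3), and its UMIs were in 8.76% and 24.7% of gated cells. It was at 78.2 and 206 CPM in cells with Foxp3, a ratio of 2.64 (1.6 to 4.58), at 45.3 and 161 CPM in the Il2ra route and at 12.7 and 29.3 CPM in the Ikzf2 cells. In CD4 cells outside the gate it was at 66.8 and 22.6 CPM. Areg was at 59.1 and 121 CPM over all gated cells and at 132 and 213 CPM in cells with Foxp3, a ratio of 1.62 (1.07 to 2.5). Rora was at 603 and 1094 CPM and, with Foxp3, at 1095 and 1441 CPM, a ratio of 1.32 (1.14 to 1.52).

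The remaining gene groups were compared in the same way, in all gated cells and in those with Foxp3. Over all genes that passed, 57.4% and 55.3% were higher in the ENZ library in these 2 sets of cells. Of the suppressive effectors 6 of 10 were higher over all gated cells, with a median of 0.17, and 6 of 11 in cells with Foxp3, with a median of 0.05. Nt5e, which encodes the adenosine-forming enzyme CD73, was at 161 and 193 CPM over all gated cells, and at 74.1 and 193 CPM in cells with Foxp3, a ratio of 2.6 (1.55 to 4.6), with 8 of 41 and 40 of 82 cells carrying a UMI. Of the homing genes 4 of 4 were higher in both sets of cells, with medians of 0.45 and 0.88. IL-2 signalling genes were higher for 6 of 8 and 7 of 8, with medians of 0.24 and 0.13, TGF-beta signalling genes for 9 of 9 in both sets, with medians of 0.20 and 0.40, and T cell receptor response genes for 6 of 7 and 5 of 7, with medians of 0.26 and 0.11. With 50 CPM asked of both libraries pooled, 9 of 9 TGF-beta signalling genes were higher over all gated cells, 5 with intervals above 1. In cells with Foxp3 8 of 8 were then higher, 0 with intervals above 1. T cells without Cd8 outside the gate had 7 of 8 higher, with a median of 0.30. Immediate early and heat shock genes were higher for 6 of 12 and 7 of 12, with medians of 0.01 and 0.04, and interferon-stimulated genes for 4 of 6 and 6 of 8, with medians of 0.21 and 0.46. Resting and central genes were higher for 2 of 8 with a median of -0.18, but for 4 of 5 in cells with Foxp3 with a median of 0.87, where Il7r, the IL-7 receptor alpha chain, was at 156 and 285 CPM, a ratio of 1.82 (1.26 to 2.69).

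Cell cycle genes were lower in the ENZ library for 8 of 10 over all gated cells, 7 with intervals below 1 and a median of -0.58, and for 9 of 11 in cells with Foxp3, 4 with intervals below 1 and a median of -0.43. With 50 CPM asked of both libraries pooled, 7 of 9 were lower in cells with Foxp3, against 43.8% of 3215 genes. Of these 9 genes, 3 had intervals below 1 and 1 had an interval above 1, and the median was -0.20. Ube2c, a ubiquitin-conjugating enzyme of mitosis, was at 93.9 and 35.9 CPM, a ratio of 0.383, and at 202 and 24.7 CPM in cells with Foxp3, where 44.9% of its control UMIs were in 1 cell. Mki67, the common proliferation marker, was at 144 and 160 CPM. Cytotoxic genes were lower for 4 of 5 over all gated cells, with a median of -0.64, and for 3 of 4 in cells with Foxp3, with a median of -1.03, and Nkg7, a granule membrane protein, was at 357 and 182 CPM and, with Foxp3, at 321 and 117 CPM. Other killer-cell genes differed in direction: Gzmc was at 2024 and 1062 CPM, but Gzmd was at 329 and 386 CPM, a ratio of 1.17 (1.05 to 1.32), Prf1 at 123 and 142 CPM, a ratio of 1.16 (0.956 to 1.4), and Gzmg at 142 and 337 CPM, a ratio of 2.38 (2.03 to 2.79), with 91.7% and 88.0% of its UMIs in 1 cell of each library. Glycolysis genes were lower for 7 of 10 and 8 of 9, with medians of -0.10 and -0.33, and BCL2 family and death receptor genes for 5 of 6 and 4 of 5, with medians of -0.35 and -0.08. Of the helper lineage genes 3 passed over all gated cells, 1 was higher and 2 were lower with a median of -0.22, and 0 passed in cells with Foxp3.

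Of the steroid receptor genes and targets 5 passed, 2 were higher and 3 lower, with a median of -0.01, and in cells with Foxp3 4 passed and 4 were higher, with a median of 0.29. Fkbp5, a chaperone partner of steroid receptors and a common target of theirs, was at 61.2 and 124 CPM, a ratio of 2.02 (1.58 to 2.61), with UMIs in 21.1% and 37.9% of gated cells. It was at 41.2 and 110 CPM in cells with Foxp3, a ratio of 2.67 (1.34 to 5.92). Zbtb16, also a steroid target and an innate-like marker, was at 144 and 62.6 CPM over all gated cells.

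Ranked by the interval bound nearer to 1, the 10 highest genes of ENZ over control in gated cells were Gzmf, Aldh1a3, Chil3, Palld, Gm19951, Il1rl1, Tnfsf11, Gm42418, Frmd5 and Lars2. Several rest on few cells. Gzmf was at 13.2 and 362 CPM, with 95.2% of its 745 ENZ UMIs in 1 of 364 cells, and Aldh1a3 was at 1.39 and 57.3 CPM, with its 118 ENZ UMIs in 3 cells. Chil3, counted below among the monocyte markers, was at 6.95 and 87.9 CPM, with 72.4% of its ENZ UMIs in 5 cells. Of the ENZ UMIs of Palld, 42.7% were in 1 cell. Tnfsf11, the RANK ligand, was at 19.5 and 70.4 CPM, and Frmd5 at 165 and 428 CPM, with UMIs in 19.5% and 32.1% of gated cells. In cells with Foxp3 alone the log2 ratio of Tnfsf11 was -0.03, from 5 control and 9 ENZ UMIs, that of Palld 0.12, from 1 and 2 UMIs, and that of Frmd5 0.49, while Gzmf had 0 and 1 UMIs and Aldh1a3 had 0 in both libraries. Of the 20 ranked genes, highest and lowest, 17 had a ratio there, of which 2 (Gm19951 and Gm42418) stayed within 0.2 of the log2 ratio over all gated cells, 11 moved and 4 turned sign.

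The 10 lowest by that ranking were Gm49180, H2-Eb1, H2-Aa, Cd74, H2-Ab1, Klra1, Gm41609, Apoe, Hgsnat and Lyz2. H2-Eb1, H2-Aa, Cd74 and H2-Ab1 belong to MHC class II presentation and are abundant in dendritic cells, B cells and macrophages. Cd74 was at 1108 and 368 CPM, a ratio of 0.332 (0.304 to 0.362), and H2-Aa at 415 and 123 CPM. In gated cells with Foxp3, Cd74 was at 1066 and 525 CPM, with 63.7% of its control and 54.3% of its ENZ UMIs in 1 cell. Klra1, an NK receptor of the Ly49 family, was in 14.7% of control and 4.12% of ENZ gated cells, and 33 of the 37 control cells with it were Ikzf2 cells. Gm49180 was at 74.4 and 11.6 CPM, with 84.1% of its control UMIs in 1 cell.

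Summed markers of several other cell types differed between the libraries. Over all gated cells the dendritic cell markers summed to 1993 CPM in control and 656 CPM in ENZ cells, led by Cd74. All 3 that passed were MHC class II presentation genes (Cd74, H2-Aa and H2-Ab1), and they were lower in ENZ cells. The markers below the filter did not share this order. Fscn1 was at 13.2 and 15.5 CPM, Flt3 at 0.695 and 2.43 CPM, Xcr1 at 0 and 0.485 CPM, and Cd209a at 7.65 and 2.43 CPM. Clec9a was at 0 in both. The macrophage markers, of which the rule limits C1q, summed to 422 and 161 CPM, led by Lyz2, and the neutrophil markers to 583 and 246 CPM, led by S100a9. Monocyte markers summed to 279 and 256 CPM, but their genes ran in opposite directions. Ly6c2 was at 162 and 105 CPM and Cd14 at 110 and 62.6 CPM, both with intervals below 1. Chil3 was at 6.95 and 87.9 CPM, with most of its ENZ UMIs in a few cells. NK cell markers summed to 682 and 390 CPM, led by Gzma, and gamma delta T cell markers to 63.3 and 21.4 CPM. The B cell markers were at 2.09 and 1.94 CPM and those of fibroblasts at 68.8 and 84.5 CPM. Cancer cell markers, of which the rule limits Krt8 and Krt18, were at 38.9 and 71.4 CPM. The sums for plasma cells (40.3 and 51.0 CPM), mast cells (29.2 and 26.2 CPM) and endothelial cells (99.4 and 126 CPM) came almost wholly from a single gene each. These were Xbp1 at 40.3 and 50.5 CPM, Kit at 27.8 and 25.7 CPM and Pecam1 at 98.0 and 123 CPM. Jchain and Ms4a2 were at 0 in both libraries, and Mzb1, Cpa3, Tpsb2, Cdh5 and Kdr had at most 6 UMIs. The part of this RNA in the differences between the libraries was not tested.

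A list of 8 genes called rRNA-like (Gm42418, AY036118, Lars2, Cmss1, Cdk8, Filip1l, Camk1d and Gphn) was also far from equal between the libraries. Several of these are protein-coding, and whether their reads came from ribosomal RNA was not tested. Camk1d, a calcium-dependent kinase, was at 1757 and 3466 CPM, a ratio of 1.97 (1.89 to 2.07). They summed to 51942 CPM in control and 109923 CPM in ENZ cells over all gated cells, with 7 of 8 higher, 6 with intervals above 1 and a median of 1.06, and to 44081 and 105553 CPM in cells with Foxp3, with 8 of 8 higher and a median of 1.34. T cells without Cd8 outside the gate had a median of 1.10, and CD8 T cells of 0.90. In cells with Foxp3 these genes were at lower levels than in cells without it for 7 of 8 in both libraries, 4 with intervals below 1, with medians of -0.40 and -0.08. A larger share of UMIs in these genes lowers the CPM of all other genes of a library in proportion.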

How the data were processed

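Droplet-based scRNA-seq was made from RM-1 tumors of 1 vehicle-treated and 1 ENZ-treated mouse. The files the authors deposited hold UMI counts for 32285 genes, unfiltered and not normalized. The control library held 170830346 UMIs over 2438568 barcodes and the ENZ library 162030149 over 2239744. The submitters' processing notes name Cell Ranger 2.1.1 and mm10, while the file headers name Cell Ranger 7.2.0; whether intronic reads were counted is not given in the sources used here. The labels' chemistry was not used in any step.

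Counts were summed per group of cells and given as CPM with exact intervals at 95%. Groups were compared for genes with at least 50 CPM in either group and 20 UMIs summed over both, and at least 2-fold means a ratio of 2 or more, or of 0.5 or less. "In both libraries" means on the same side of 1 in each. With 1 library per condition there is no test, and cells are not replicates. A count of 0 was taken to allow 3 UMIs or cells. T cells were CD3, keratin and C1q gated as the cells described, and CD8 T cells had at least 2 Cd8 UMIs. Doublets were kept: scrublet, run in scanpy 1.11.5, marked 0 control cells at its own threshold of 0.648, and at the ENZ threshold of 0.25 it marked 2.41% and 2.84% of barcodes, whose removal was an alternative. Free RNA was judged from barcodes of at most 100 UMIs, keratin cells and cells thinned to 1000 UMIs.

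The members, the gene lists and the named-gene rule were chosen with earlier results of these data known. The rule takes every gene of the lists, with examples, and the 10 highest and 10 lowest genes of ENZ over control and of gated over CD4 T cells, ranked by the interval bound nearer to 1, without genes of the gate, mitochondrial, ribosomal protein and antigen receptor genes. Some genes covered by these lists are left out of the text and not reported here. The comparison of cells with and without Foxp3 was added after seeing the data. Positions are from GENCODE M21. Code for the ratio intervals was tested on Poisson counts simulated from the summed control UMIs. Such counts follow the model of the intervals and leave out the clustering of UMIs in few cells. Python 3.11.15 was used with scipy 1.17.1, numpy 2.4.6, pandas 2.3.3 and matplotlib 3.10.9.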

Additional observations from a re-analysis of the deposited data

Results flagged for a closer look

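Some genes had ENZ over control ratios on opposite sides of 1 in 2 sets of cells, each with an interval clear of 1. With 1 library per condition the differences between the sets were not tested. Between gated cells and CD8 T cells, the log2 ratio was -0.26 for Aldoa (0.30 in CD8 T cells), -0.64 for Ccl5 (0.23), -0.24 for Gzmb (0.55), -1.12 for Ifng (0.84) and 0.54 for Junb (-0.34). Between gated cells with and without a Foxp3 UMI, it was -1.88 for Fos (0.53 without) and -0.38 for Ifi27l2a (0.42 without). The ratio of cells with over cells without Foxp3 was also turned for Fos, with log2 values of 1.69 (control) and -0.72 (ENZ). Of the 40 Fos UMIs in control cells with Foxp3, 67.5% were in 1 cell.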

How the results depend on the processing

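With 1 library per condition no replicate could be left out. No paired analysis was possible because there is a single library of each group. Of the alternatives, 36 left a share or difference within the 95% interval of the reported value, or a count within 1.5 times of it, and 20 did not. The gated share of T cells was 46.7% for control and 49.5% for ENZ. It was 7.62% and 11.2% when Foxp3 alone was asked, and 9.67% and 18.6% when a Cd4 UMI was asked as well (a difference of 8.97 points). It was 23.5% and 33.2% when the rule was applied to cells thinned to 1000 UMIs (9.67 points), of the 204 and 244 T cells left after thinning. In an alternative chosen after seeing the data, gated cells with innate-like UMIs were not counted, which gave 28.4% and 40.3% (11.8 points). All 538 and 735 T cells, innate-like ones included, stayed in the denominator of that alternative. The gated share was 57.4% and 64.3% of T cells without Cd8 and 2.05% and 3.54% of all barcodes with enough UMIs. The 95 of 3484 genes at least 2-fold apart between the libraries became 457 of 3654 in cells with Foxp3 alone, from far fewer UMIs. They became 45 of 1875 with 100 CPM and 40 UMIs asked. The 13 of 28 list genes higher than in CD4 T cells became 25 of 31 with Foxp3 alone and 8 of 18 with that stricter filter. They became 20 of 27 against all other T cells without Cd8, a comparison chosen after seeing the data. Over all genes that passed, 29.3% were higher in both libraries for gated cells and 32.0% for those with Foxp3. That share is not given for the other settings. Of 157 values of the 20 genes ranked on ENZ over control, 131 stayed within 0.2 on the log2 scale, 22 moved and 4 turned sign. With Foxp3 alone, Gzmf, Aldh1a3 and Klra1 had no ratio, having 0 UMIs in 1 or both libraries, and of the other 17 genes 2 stayed, 11 moved and 4 turned sign: Chil3 to -0.88, Tnfsf11 to -0.03, Gm49180 to 0.86 and Hgsnat to 0.35; the cause was not tested. Of the other moved values 9 came from the mean of each cell's CPM.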
